A study of Mus musculus with 4 samples.

Results

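The FGF ligands and receptors measured in regenerating mouse digits are described here across the cell classes of 4 single-cell RNA libraries. The 10 genes were chosen by symbol, as 6 ligands (Fgf1, Fgf2, Fgf7, Fgf10, Fgf18 and Fgf22) and 4 receptors (Fgfr1, Fgfr2, Fgfr3 and Fgfr4), out of 33696 genes in the count matrices. The values that follow come from the 29076 cells kept from mice on chow with SAR131675, a VEGFR3 kinase inhibitor, 24030 from mice on the control diet, 19827 after lymph node removal (LNR) and 20669 from its sham control. All mice were female C57BL/6 of 6 to 8 weeks whose terminal phalanx (P3) had been amputated at the tip. SAR131675 was given in the chow at 30 mg/kg beside a matched control diet, for 8 days by the series' text, while the study's methods describe feeding from before the amputation to the end of the experiment. The day of collection after amputation is given in more than 1 way and is left out here. In the other pair, lymph nodes were removed from 1 limb with the other limb as sham. The sample labels list both control groups without treatment, while the series describes sham controls for the LNR group.

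Each condition was 1 library made from the digits of 10 mice and carried its own batch number, so treatment, batch and the pool of mice cannot be told apart, and a difference between libraries has no replicate check. With the opposite limb as sham, the LNR and sham pools may come from the same mice. By the study's methods, tips of digits 2 and 4 were amputated while digits 2 to 4 were collected, cut through the middle phalanx, so an uninjured digit may be in each pool. The cells include skin, hair follicle, nail, sweat gland, tendon and joint as well as bone. Per library, the kept cells held a median of 11316 UMIs (unique molecular identifiers, 1 per captured RNA molecule) for SAR131675, 10712 for the control diet, 5725 for LNR and 5851 for sham. Levels are given as CPM, the usual scaling of a gene's UMIs by the total UMIs of the cells summed, and intervals are exact 95% Poisson intervals that cover counting error only. UMIs were counted at the 3′ end of transcripts, so levels are compared for 1 gene between cells and not between genes, UMI totals of genes say only how many counts a value rests on, and the splice forms of the receptors cannot be told apart. Of the kept barcodes, 210 were found in both libraries of the diet pair and 101 in both of the LNR pair. A keratinocyte cluster of 3 LNR and 378 sham cells stood apart and was left unnamed. Its leading genes included the inner root sheath genes Krt71, Krt25, Krt27 and Tchh. It lies outside the hair matrix- and root sheath-like class used below, which held 113 LNR and 133 sham cells.

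FGFs are secreted proteins that signal between cells by binding receptor tyrosine kinases together with heparan sulfate. In skin, FGF7 and FGF10 are made by mesenchymal cells and act on an epithelial splice form of FGFR2, which is a textbook example of signaling from dermis to epidermis. FGF18 and FGFR3 are known from growth plate cartilage, and FGF1 and FGF2 lack a classical secretion signal. Digit tip regrowth needs the nail, whose epithelium lies against a specialized mesenchyme.

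The cells were clustered within each pair without the FGF members and other FGF pathway genes, and clusters were named from marker lists, which gave 27 classes with at least 20 cells in every library. Cells in none of these classes were 7.93% to 9.46% of a library. The class in which 5 members were highest is called dermal papilla- and nail mesenchyme-like. Its markers Rspo3 and Crabp1 were at 967 to 1515 CPM and 1325 to 2618 CPM over the 4 libraries, while Wif1 of the same list was higher in another class. Corin was at 218 and 168 CPM in the SAR131675 and control diet libraries but 28.9 and 41.9 CPM in LNR and sham. Rspo4 was at 75.9, 74.3, 16.9 and 9.52 CPM in the same order and was highest in the dermal papilla- and nail mesenchyme-like class in 3 libraries. That class held 497 SAR131675, 326 control diet, 172 LNR and 135 sham cells.

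Promoter sequences of 3 of the members that were highest in the dermal papilla- and nail mesenchyme-like cells (Fgf7, Fgf10 and Fgfr4), and of Fgf22, which was highest in 1 epithelial class, are shown so that the members can be set side by side. They are the 250 bases before the RefSeq start on mouse build GRCm38.p6, which is not the GRCm39 build named in the submitters' processing notes, and they are read 5′ to 3′ on the plus strand, which is the strand of all 4 genes. Capitals mark the CCAAT and GGGCGG motifs on either strand, so that a motif on the minus strand appears as ATTGG or CCGCCC.
Fgf7 (chr2:126034408-126034657): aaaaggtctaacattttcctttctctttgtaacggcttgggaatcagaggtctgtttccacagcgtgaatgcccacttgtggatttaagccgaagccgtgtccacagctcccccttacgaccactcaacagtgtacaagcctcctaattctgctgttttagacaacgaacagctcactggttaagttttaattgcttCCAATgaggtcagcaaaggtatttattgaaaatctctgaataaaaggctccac
Fgf10 (chr13:118714449-118714698): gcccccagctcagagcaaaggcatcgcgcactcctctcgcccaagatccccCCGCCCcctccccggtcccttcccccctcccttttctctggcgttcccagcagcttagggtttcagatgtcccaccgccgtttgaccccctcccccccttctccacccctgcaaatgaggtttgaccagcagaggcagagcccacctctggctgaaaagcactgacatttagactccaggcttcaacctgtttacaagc
Fgfr4 (chr13:55152568-55152817): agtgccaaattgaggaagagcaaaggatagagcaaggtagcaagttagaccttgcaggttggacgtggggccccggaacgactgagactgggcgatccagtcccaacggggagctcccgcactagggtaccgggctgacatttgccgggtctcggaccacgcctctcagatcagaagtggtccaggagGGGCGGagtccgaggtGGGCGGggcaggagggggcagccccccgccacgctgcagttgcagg
Fgf22 (chr10:79754859-79755108): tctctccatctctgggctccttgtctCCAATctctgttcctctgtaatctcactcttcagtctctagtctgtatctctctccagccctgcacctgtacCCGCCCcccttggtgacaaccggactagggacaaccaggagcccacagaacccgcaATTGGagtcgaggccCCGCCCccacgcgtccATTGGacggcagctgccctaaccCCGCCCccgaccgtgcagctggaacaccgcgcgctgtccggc
The Fgf22 window held both motifs 3 times each. The Fgf7 window held CCAAT alone, 53 bases before the start. GGGCGG stood 2 times in the Fgfr4 window and 1 time in that of Fgf10, at 199 bases before its start. Among 32851 mouse promoters of the same length, 33.8% hold CCAAT and 32.7% hold GGGCGG on either strand. TATAAA, which 12.4% of those promoters hold, and the AP-1 motif TGANTCA, held by 6.75%, were not in these 4 windows. Of the 10 members, 8 matched a RefSeq promoter.

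The ligands Fgf2, Fgf7 and Fgf10 and the receptors Fgfr1 and Fgfr4 were highest in the dermal papilla- and nail mesenchyme-like cells by the mean over 4 libraries. Fgf18 was highest in tenocyte-like cells, Fgf1 in pericyte- and smooth muscle-like cells, Fgf22 in granular keratinocyte-like cells, and Fgfr2 and Fgfr3 in basal keratinocyte-like cells. Basal cells were the highest class for Fgfr2 in 1 library and for Fgfr3 in 3 libraries. By the mean within the diet pair, both receptors were highest in melanocyte-like cells. Within the LNR pair Fgfr2 was highest in dermal papilla- and nail mesenchyme-like cells and Fgfr3 in basal cells. For 8 of the 10 members the highest class was the same in all 4 libraries, the exceptions being Fgfr2 and Fgfr3. Without the second clustering of mesenchymal cells this held for 2 members, and Fgf18 was then highest in adventitial fibroblast-like and Fgfr4 in fibroblast-like cells.

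**Figure D1:**
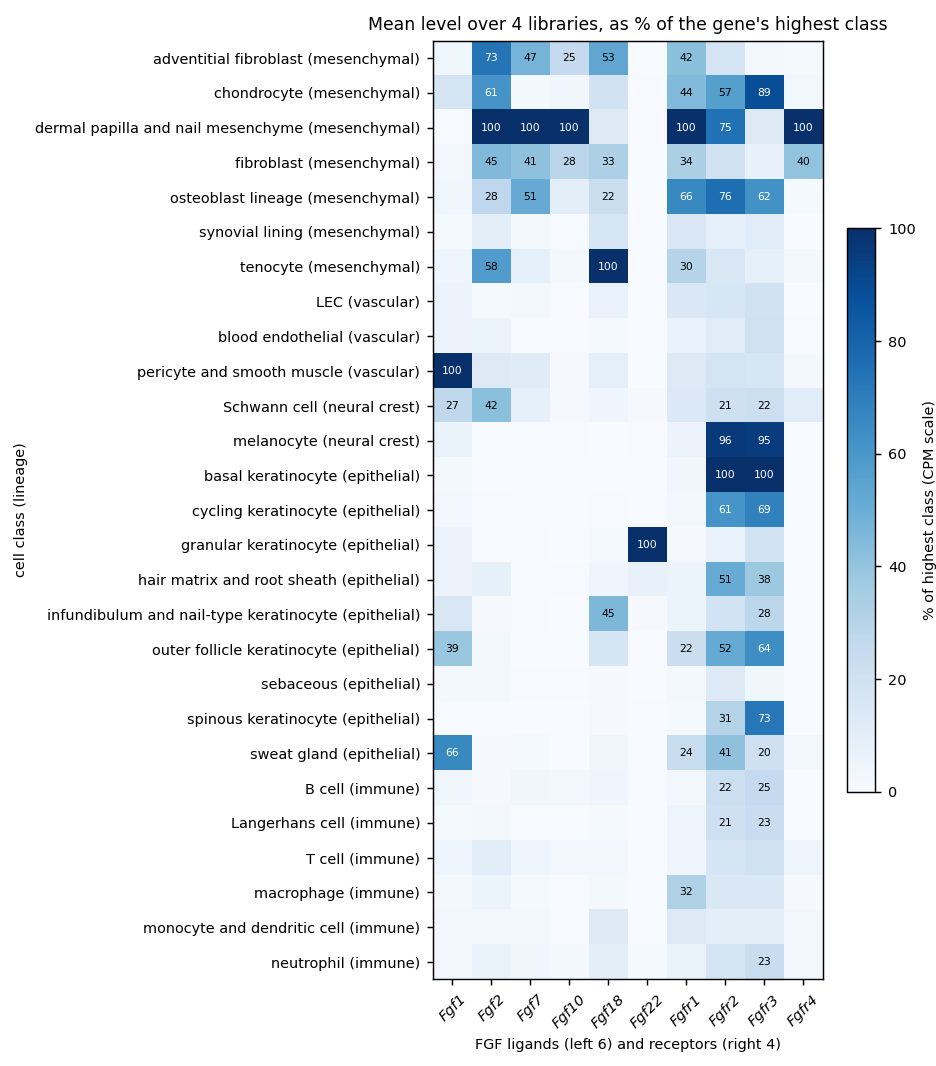
Level of each of the 10 FGF genes (columns) in 27 cell classes (rows, with lineage), as the mean CPM over the 4 libraries in percent of the gene's highest class. Values of 20% and more are printed. Fgf2, Fgf7, Fgf10, Fgfr1 and Fgfr4 reach 100% in the dermal papilla and nail mesenchyme row, and Fgf22 has no other class at 20% or more.

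Fgf7, keratinocyte growth factor, stood at 771 CPM (744 to 799.5) in the SAR131675 library, 409 CPM (382 to 436.5) in the control diet library, 236 CPM (207 to 268) in LNR and 211 CPM (174 to 254.5) in sham cells of the dermal papilla- and nail mesenchyme-like class. In the diet pair this level was carried by 1 of the 3 clusters of the class, led by Rspo3 and Kcnj3, at 1682 and 1065 CPM, while the others were at 283 and 271 CPM and at 128 and 120.5 CPM. The last of these was led by Thbs4, which is on the tenocyte marker list, and by Crabp1. The osteoblast lineage followed at 278, 244, 166 and 149.5 CPM in the same library order. Adventitial fibroblast-like cells were at 248, 221, 151 and 153 CPM and other fibroblast-like cells at 205, 206, 128 and 130.4 CPM. The first class was above the osteoblast lineage beyond counting error in the SAR131675, control diet and LNR libraries, and the intervals overlapped in sham. The osteoblast lineage and adventitial fibroblasts overlapped in all 4 libraries. Mesenchymal classes together held 89.7%, 89.9%, 78.8% and 75.7% of all Fgf7 UMIs, while basal keratinocyte-like cells were at 0.252 to 0.453 CPM.

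The share of cells with at least 1 Fgf7 UMI in that class was 66.0%, 56.4%, 50.6% and 37.8%, at median depths of 7355, 6111, 2574 and 1919 UMIs. In T cell-like cells, which should lack it, the share was 3.28%, 2.29%, 6.64% and 4.46% at median depths of 5689, 5333, 2290 and 2207 UMIs. After each cell was thinned to 2000 UMIs, the mesenchymal shares were 43.1%, 36.2%, 34.8% and 27.0%, against 0% to 5.26% in T cell-like cells. Adventitial fibroblast-like cells, deeper at 10500 to 11137 UMIs in the diet pair, had a higher unthinned share there (74.6% and 71.4%) but a lower thinned share in each library (36.5%, 31.8%, 25.3% and 24.7%).

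Fgf10, a ligand of limb and follicle mesenchyme, had fewer sources. It stood at 305 CPM in SAR131675, 239 CPM in control diet, 115 CPM in LNR and 122 CPM in sham cells of the dermal papilla- and nail mesenchyme-like class. Fibroblast-like cells, next in order, were at 70.3, 87.1, 35.3 and 28.2 CPM, below the first class beyond counting error in every library. Adventitial fibroblast-like cells, at 63.6, 72.3, 30.7 and 30.9 CPM, were below them beyond counting error in the control diet library and overlapped with them in the other 3. The osteoblast lineage, rich in Fgf7, held little Fgf10, at 16.6, 33.2, 15.1 and 8.86 CPM. Basal keratinocyte-like cells were at 0.0840 to 0.183 CPM. Of dermal papilla- and nail mesenchyme-like cells with an Fgf10 UMI, 74.5%, 66.0%, 67.8% and 64.9% also had an Fgf7 UMI, against 66.0%, 56.4%, 50.6% and 37.8% of all cells of that class. Deeper cells show more of both genes, so these shares are a description.

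Fgf2, basic FGF, was spread over several connective tissue classes. Its levels were 127.5, 145, 53.8 and 74.2 CPM in dermal papilla- and nail mesenchyme-like cells and 85.4, 106.5, 50.5 and 52.2 CPM in adventitial fibroblast-like cells. Tenocyte-like cells were at 103, 81.7, 25.9 and 21.1 CPM and chondrocyte-like cells at 82.2, 83.9, 34.0 and 44.8 CPM. Dermal papilla- and nail mesenchyme-like cells were above adventitial fibroblast-like cells beyond counting error in the diet pair and overlapped with them in the LNR pair. Tenocyte- and chondrocyte-like cells overlapped in all libraries but sham, where chondrocyte-like cells were higher. Outside the mesenchyme, Schwann cell-like cells held 68.3, 61.5, 18.5 and 19.3 CPM. The epithelial classes together were at 0.832 to 1.62 CPM.

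Fgf18 had its highest CPM in tenocyte-like cells, which held 4.35%, 4.78%, 8.44% and 8.31% of its UMIs, while adventitial fibroblast-like cells held 20.2%, 23.8%, 23.2% and 22.3%. Tenocyte-like cells held 72.4 CPM (58.1 to 89.2), 81.7 CPM (66.9 to 98.8), 26.4 CPM (19.7 to 34.6) and 27.7 CPM (20.8 to 36.2). Adventitial fibroblast-like cells were at 28.2, 41.0, 19.0 and 22.9 CPM, below tenocytes beyond counting error in the diet pair and overlapping with them in the LNR pair. The infundibulum- and nail-type keratinocyte-like class held 31.5 and 53.4 CPM in the diet pair but 5.77 and 3.73 CPM in the LNR pair. Different clusters made up that class in the 2 pairs. A cluster led by the keratin gene Krt42 and Spink12 held 817 SAR131675 and 413 control diet cells, while its Krt42 counterpart in the LNR pair held 10 and 6 cells. Fgf18 in the diet cluster was at 61.0 CPM and 137 CPM, from 552 and 578 UMIs, and it carried 27.3% and 26.1% of all Fgf18 UMIs. An outer follicle keratinocyte-like cluster led by Gm973 and Grem1 added 18.6 and 28.1 CPM.

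Fgf1, acidic FGF, had 0 to 3 UMIs per library in dermal papilla- and nail mesenchyme-like cells, where Fgf2, Fgf7 and Fgf10 were highest. Pericyte- and smooth muscle-like cells stood at 136 CPM (126 to 146), 149 CPM (137 to 162), 57.1 CPM (49.3 to 65.8) and 53.5 CPM (45.3 to 62.8). Sweat gland-like cells held 73.6, 82.4, 53.3 and 51.2 CPM and outer follicle keratinocyte-like cells 46.9, 56.0, 25.6 and 23.8 CPM. These 3 classes were apart beyond counting error in the diet pair, and the first 2 overlapped in the LNR pair. Because outer follicle cells were numerous, they held 39.8%, 39.8%, 36.0% and 37.9% of all Fgf1 UMIs. Within the pericyte- and smooth muscle-like class of the diet pair, a small cluster led by the contractile genes Cnn1 and Acta2 (33 and 27 cells) was at 245 and 232 CPM. The larger Rgs5 cluster of that class was at 128 and 143 CPM.

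Fgf22 was highest in granular keratinocyte-like cells, the last living layer of the epidermis. They held 252 CPM (240.2 to 264), 261 CPM (251 to 272), 22.7 CPM (18.5 to 27.5) and 28.3 CPM (23.7 to 33.5). These cells contributed 86.0%, 91.5%, 65.4% and 62.1% of all Fgf22 UMIs although they were 1.34%, 2.18%, 1.41% and 1.54% of kept cells. The share of them with an Fgf22 UMI was 69.9%, 71.0%, 19.6% and 21.3%, at median depths of 20794, 20156, 16538 and 15280 UMIs. Basal keratinocyte-like cells had a share of 0.277% to 0.390%, at median depths of 6681 to 12260 UMIs. After thinning to 2000 UMIs the granular shares were 29.6%, 37.2%, 4.36% and 3.56%. Hair matrix- and root sheath-like cells were second by the mean over libraries at 6.37, 2.55, 9.87 and 23.0 CPM. In the control diet library the classes above them included infundibulum- and nail-type keratinocyte-like cells at 3.58 CPM and neutrophil-like cells at 8.05 CPM, the latter from 4 UMIs in 1 cell. Among the 4 libraries, only in sham did the hair matrix- and root sheath-like interval overlap with that of granular cells. In the diet pair a cluster of 43 and 35 cells led by Klk10 and Sprr1a held 63.1 and 59.1 CPM.

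**Figure D2:**
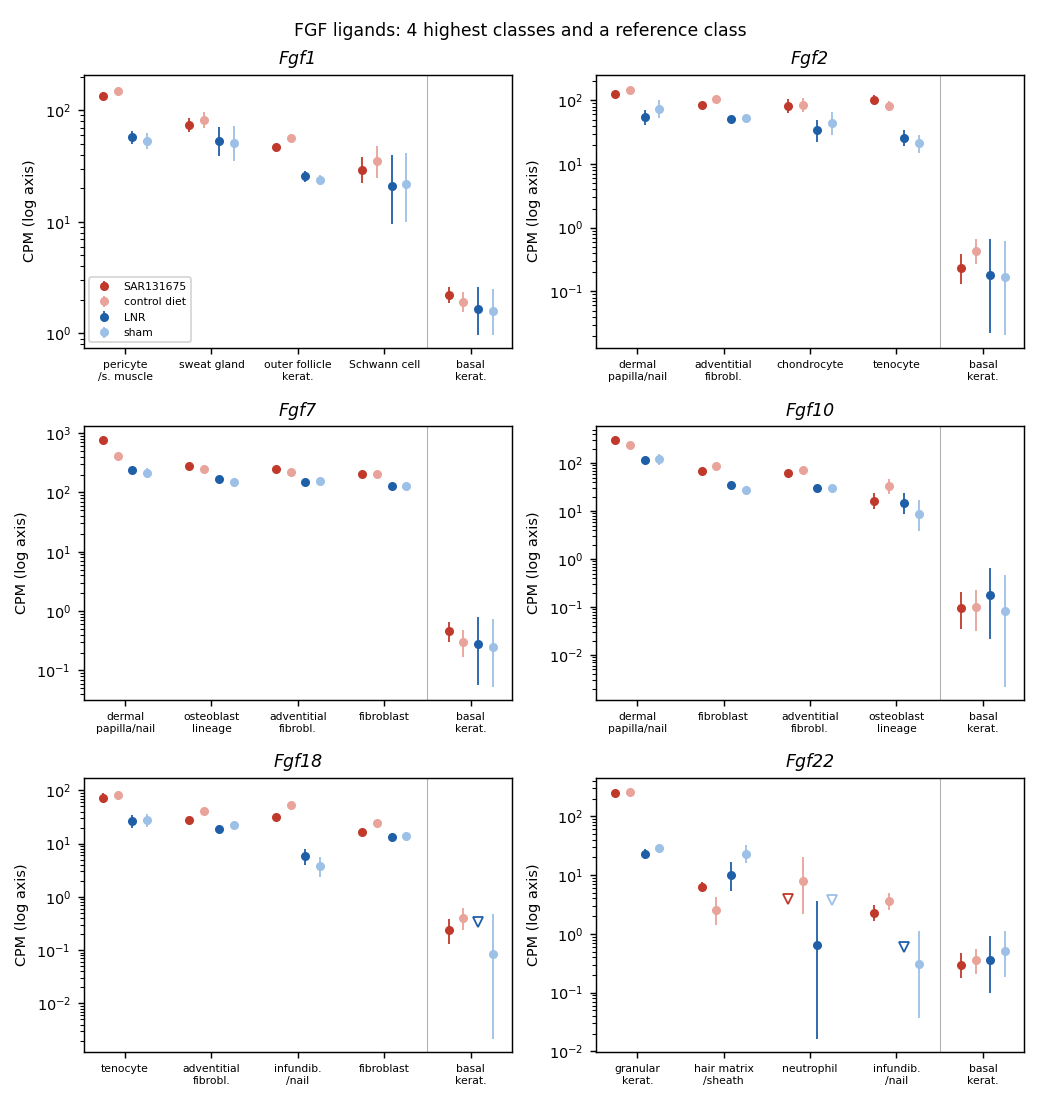
CPM (log axis) of the 6 FGF ligands in their 4 highest classes and, right of the line, in basal keratinocyte-like cells, for each of the 4 libraries. Points are single libraries, bars are exact 95% Poisson intervals, and open triangles mark the upper bound where no UMI was counted. Fgf7 lies at 211 to 771 CPM in its highest class and at 0.252 to 0.453 CPM in basal keratinocytes.

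Fgfr1 stood at 892 CPM (862 to 922), 822 CPM (784 to 861), 899 CPM (841 to 959.8) and 790.0 CPM (716 to 869.8) in dermal papilla- and nail mesenchyme-like cells. The osteoblast lineage was at 545, 639.6, 522 and 536 CPM, below the first class beyond counting error in every library. Chondrocyte-like and adventitial fibroblast-like cells followed, at 338 to 446 CPM, and were apart beyond counting error in the control diet library alone of the 4. Among immune cells, macrophage-like cells held 273, 335, 239 and 249.7 CPM, with T cell-like cells at 10.7 to 54.2 CPM. Outer follicle keratinocyte-like cells were at 229, 259, 142 and 135 CPM, against 20.8 to 39.7 CPM in basal and 6.75 to 15.1 CPM in spinous keratinocyte-like cells. Lymphatic endothelial-like cells (LECs), the cells that VEGFR3 inhibition acts on, held 132, 132, 124 and 102 CPM of Fgfr1. They had no Fgfr4 UMI, which allows at most 2.10 to 2.77 CPM by the exact interval of each library.

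Fgfr2 had most of its UMIs in keratinocytes. Basal keratinocyte-like cells were at 614 CPM (608 to 621) for SAR131675, 649 CPM (642 to 656) for control diet, 164 CPM (156 to 171) for LNR and 169.6 CPM (162 to 177) for sham. Dermal papilla- and nail mesenchyme-like cells held 423, 401, 193 and 179 CPM, the osteoblast lineage 389, 481, 180 and 162 CPM, and chondrocyte-like cells 304, 319, 149 and 133 CPM. In the diet pair basal cells were above these mesenchymal classes beyond counting error. In the LNR pair dermal papilla-like, osteoblast lineage and basal cells overlapped. The epithelium held 82.8%, 83.8%, 69.4% and 73.0% of Fgfr2 UMIs, where it held 69.5%, 70.4%, 57.4% and 59.8% of all UMIs. Spinous keratinocyte-like cells, one layer up, were at 182, 188, 60.5 and 57.3 CPM.

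The melanocyte-like class, of 36 to 79 cells per library, had 756 and 610.1 CPM of Fgfr2 in the diet pair and 105 and 66.1 CPM in the LNR pair. The basal keratins Krt5 and Krt14, which melanocytes should lack, were at 3391 to 5196 CPM and 5293 to 8595 CPM in the same cells, against 4895 to 5946 CPM and 8373 to 9760 CPM in basal keratinocyte-like cells. The melanocyte gene Dct was at 423, 2001, 3427 and 5764 CPM. Keratinocyte transcripts were thus counted in these barcodes, and their part in their Fgfr2 and Fgfr3 was not tested. T cell-like cells gave 112, 75.0, 35.4 and 45.3 CPM of Fgfr2, with Krt14 at 398 to 2239 CPM.

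Fgfr3 was highest in basal keratinocyte-like cells by the mean over libraries, followed by the melanocyte-like class at 122, 163, 92.0 and 79.3 CPM, which carried the keratinocyte transcripts just described. Basal keratinocyte-like cells held 126, 144, 112 and 97.7 CPM and spinous cells 91.8, 95.6, 80.3 and 80.6 CPM. Chondrocyte-like cells, in which FGFR3 restrains growth of the cartilage, held 114 CPM (90.8 to 142), 127 CPM (103 to 155), 88.6 CPM (69.4 to 111) and 94.9 CPM (71.1 to 124), overlapping basal cells. The osteoblast lineage was at 63.4, 104, 55.1 and 76.4 CPM. Dermal papilla- and nail mesenchyme-like cells, the highest class for 5 members, were low for Fgfr3, at 25.6, 17.1, 11.0 and 9.52 CPM. Among basal cells, 69.5%, 69.9%, 36.7% and 32.0% had UMIs of both Fgfr2 and Fgfr3.

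Fgfr4 rested on 1015 UMIs in all kept cells and was highest in mesenchymal classes. It stood at 33.2 CPM (27.8 to 39.4), 40.1 CPM (32.1 to 49.5), 21.9 CPM (13.7 to 33.2) and 17.1 CPM (7.83 to 32.5) in dermal papilla- and nail mesenchyme-like cells. Fibroblast-like cells were second at 17.8, 18.7, 4.43 and 4.29 CPM, below the first class beyond counting error in every library. Within the fibroblast-like class of the diet pair, the cluster led by Sema3a, Crabp1 and Dkk2 was at 72.0 and 70.3 CPM, above the dermal papilla- and nail mesenchyme-like class as a whole. It carried 47.4% and 49.2% of all Fgfr4 UMIs, against 27.1% and 22.7% in the dermal papilla- and nail mesenchyme-like class. An LNR pair cluster that also had Crabp1 and Dkk2 among its leading genes was at 15.7 and 16.2 CPM. Crabp1 is also a marker of the dermal papilla list. Basal keratinocyte-like cells gave 0 UMIs in SAR131675, LNR and sham libraries and 3 in the control diet library, which in the SAR131675 library allows at most 0.0576 CPM.

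**Figure D3:**
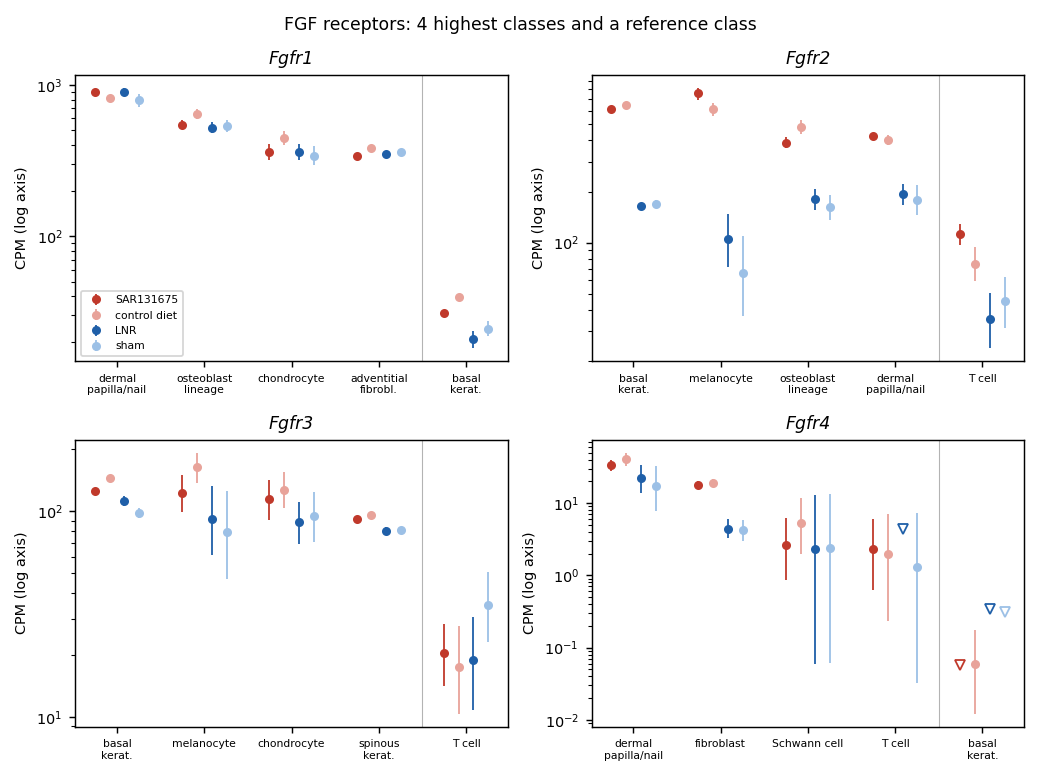
CPM (log axis) of the 4 FGF receptors in their 4 highest classes and, right of the line, in a reference class (basal keratinocyte-like or T cell-like cells), for each of the 4 libraries. Bars are exact 95% Poisson intervals and open triangles the upper bound where no UMI was counted. The Fgfr2 points of the diet pair lie above those of the LNR pair in each class shown, while Fgfr1 lies at 790.0 to 899 CPM in its highest class in all 4 libraries.

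Over the 27 classes the members fell into groups by the correlation of log2(CPM + 10), given as a description. Fgf7 and Fgf10 had Pearson's r = 0.89, Fgf10 and Fgfr4 0.84, Fgf2 and Fgf7 0.82, Fgf2 and Fgfr1 0.75, and Fgfr2 and Fgfr3 0.75. Fgf7 and Fgfr3 stood opposite at −0.37. All points of a comparison come from the same libraries, so they share depth and RNA of other cells. Among all other genes, Fgfr4 was most like Rspo4 (0.99) and Rspo1 (0.97), which encode R-spondins that amplify Wnt signaling. Rspo4 was among the markers that named the dermal papilla- and nail mesenchyme-like class. Fgf22 was most like Lce1l (0.99), Gng13 (0.99) and Lce1g (0.99), of which the first and last are late cornified envelope genes of the outer epidermis. Fgf10 was most like the unnamed transcripts Gm16263 (0.97) and Gm26771 (0.96) and then Kcp (0.95). For Fgf7 the nearest were Pcdh10, Tspan11 and Vash2 (each 0.95), for Fgf2 Reck (0.95), Oaf (0.95) and Vcan (0.92), and for Fgf18 Snx33 (0.81), Creb3l1 (0.81) and Gpr39 (0.78). Fgf1 was most like Csrp1 (0.85), Ppp1cb (0.81) and Arhgef16 (0.81). Fgfr1 was nearest to 1500002C15Rik (0.89), Tceal1 (0.88) and Arl3 (0.88), Fgfr2 to Asb16 (0.86), Ikzf4 (0.83) and Xrcc5 (0.80), and Fgfr3 to Asb16 (0.80), Kcnk2 (0.79) and Slc25a13 (0.78). The third match of Fgfr4 was St6gal2 (0.96).

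The first question of treatment was whether the VEGFR3 inhibitor diet went with other FGF levels than the control diet. Over all kept cells, 1 of the 10 members differed by 1.5-fold or more, which 9.69% of the 22625 genes with at least 20 UMIs in the pair did. This was Fgf22, at 6.08 CPM (5.82 to 6.35) with SAR131675 and 9.53 CPM (9.16 to 9.91) with control diet, a log2 ratio of −0.65 (−0.73 to −0.56). Granular keratinocyte-like cells, its main source, numbered 389 and 524, and within them the level was 252 against 261 CPM, a log2 ratio of −0.05 (−0.14 to 0.04). Outside them Fgf22 was at 0.869 and 0.841 CPM. With the class mix made equal in both libraries the log2 ratio of Fgf22 was −0.06, and without the upper limits on genes and UMIs per barcode it was −0.55, so that 0 members were past 1.5-fold in either case. Because a share of cells and RNA per cell both enter a level over all cells, the 2 cannot be told apart there.

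Fgf18 was at 5.96 and 8.35 CPM over all cells, a log2 ratio of −0.49 (−0.57 to −0.40), short of 1.5-fold. In the Krt42 nail-type cluster the level was 61.0 against 137 CPM, a log2 ratio of −1.16 (−1.33 to −0.99), while the cells numbered 817 against 413. Outside that cluster Fgf18 was at 4.45 and 6.27 CPM (log2 ratio −0.49, −0.60 to −0.39). Of 14 classes with enough Fgf18 UMIs, 5 were lower by 1.5-fold or more with SAR131675 and none was higher, where 14.2% of all gene and class combinations were past that fold in either direction. These included the infundibulum- and nail-type class (log2 ratio −0.76, −0.93 to −0.59) and spinous keratinocyte-like cells (−1.75, −2.53 to −1.03, from 21 and 70 UMIs). Spinous cells were at 0.291 and 0.977 CPM, beside 2.33 and 0.973 CPM in T cell-like cells. The rest were dermal papilla- and nail mesenchyme-like cells (36 and 30 UMIs), the osteoblast lineage (17 and 16 UMIs) and basal keratinocyte-like cells (15 and 20 UMIs). The CPM intervals of the diet and control libraries overlapped in each of these. Adventitial fibroblasts as a class were at 28.2 against 41.0 CPM, short of 1.5-fold, and their cluster led by C3 and Ifi205 at 24.8 against 43.4 CPM. Tenocytes were at 72.4 against 81.7 CPM with overlapping intervals.

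Fgf7 was 34.6 CPM with SAR131675 and 28.3 CPM with control diet over all cells, a log2 ratio of 0.29 (0.25 to 0.33). In the dermal papilla- and nail mesenchyme-like cells the levels of 771 and 409 CPM gave 0.92 (0.81 to 1.03). Of the 3 clusters of that class, the one led by Rspo3 and Kcnj3 was at 1682 and 1065 CPM (log2 ratio 0.66, 0.53 to 0.79), from 147 and 66 cells. The other clusters, led by Gpc5 and by Thbs4, were at 283 and 271 CPM and at 128 and 120.5 CPM. Outside the Rspo3 cluster, Fgf7 was at 27.2 and 26.1 CPM over all cells. In the same Rspo3 cluster Fgf10 was at 501 and 355 CPM and Fgfr1 at 1509 and 1719 CPM. A single control diet cell held 95 of the 886 Fgf7 UMIs of the class (10.7%), and a single SAR131675 cell 96 of 3019. Hair matrix- and root sheath-like cells, which grow beside the dermal papilla, were 4.40% of the SAR131675 cells and 2.01% of the control cells. Their part in the Fgf7 values was not tested.

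**Figure D4:**
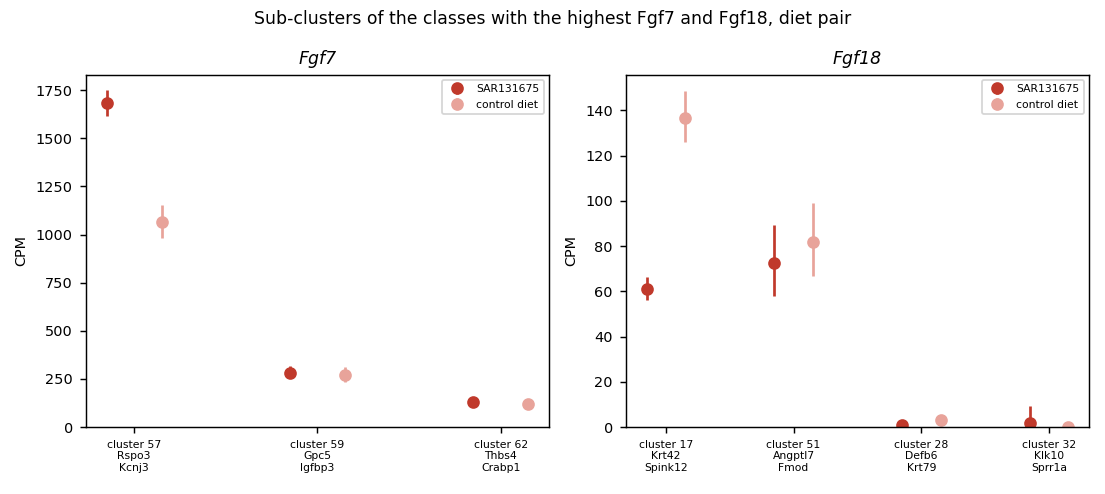
CPM of Fgf7 in the 3 clusters of dermal papilla- and nail mesenchyme-like cells (left) and of Fgf18 in the tenocyte-like cluster and the clusters of infundibulum- and nail-type keratinocyte-like cells (right), diet pair. Points are single libraries, bars exact 95% Poisson intervals. Fgf7 stands at 1682 and 1065 CPM in cluster 57, and Fgf18 at 61.0 and 137 CPM in cluster 17.

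Over all cells, no receptor reached a 1.5-fold difference with the diet. The log2 ratios were −0.10 for Fgfr1 (98.7 and 106 CPM), −0.04 for Fgfr2 (279.6 and 287 CPM), −0.17 for Fgfr3 (68.3 and 77.1 CPM) and −0.03 for Fgfr4 (1.41 and 1.44 CPM). Fgfr2 was past 1.5-fold in 0 of its 27 classes, beside the 14.2% of all gene and class combinations. That share takes in combinations with as few as 20 UMIs and is not matched to Fgfr2, which had 94948 and 76304 UMIs over all cells. Over all cells, the share of genes past the fold was 9.69% with at least 20 UMIs and 4.96% with at least 100. Fgf1 (−0.03), Fgf2 (−0.19) and Fgf10 (−0.01) were also short of it. The median over the 10 members was −0.07, against −0.01 over all genes.

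Taking member and class together, 157 combinations had at least 20 UMIs, and 13 were higher and 18 lower by 1.5-fold or more with SAR131675. That is 19.7%, where 14.2% of all gene and class combinations were past that fold. Of the 31, 24 rested on under 100 UMIs and 16 had a counting interval that left out 0. The osteoblast lineage had lower Fgf2 (23.7 and 46.8 CPM), Fgf10 (16.6 and 33.2 CPM) and Fgfr3 (63.4 and 104 CPM) with SAR131675. Of 10165 genes with enough UMIs in this class, 825 were higher and 931 lower by that fold. Fgf10 there rested on 28 and 34 UMIs, with 6 and 9 of them in 1 cell, and its CPM intervals overlapped. Fgfr2 in that lineage was at 389 and 481 CPM and Fgfr1 at 545 and 639.6 CPM. Fgf22 in hair matrix- and root sheath-like cells was at 6.37 against 2.55 CPM, from 117 UMIs in 26 cells, 28 of them in 1 cell, and 15 UMIs in 9 cells. The share of those cells with a UMI was 2.03% and 1.86%, and 0.798% and 0.905% after thinning.

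The second question was whether lymph node removal went with other FGF levels than the sham operation. Over all kept cells, 0 of the 10 members were past 1.5-fold either way, which 6.59% of 19200 genes were. Fgf10 came nearest among the higher, at 6.59 CPM (6.17 to 7.02) and 4.63 CPM (4.30 to 4.99), a log2 ratio of 0.51 (0.36 to 0.65). In the dermal papilla- and nail mesenchyme-like cells, which held 12.2% and 9.17% of its UMIs, it was at 115 and 122 CPM. In fibroblast-like cells, which held 38.2% and 34.8%, it was at 35.3 and 28.2 CPM. With an equal class mix its log2 ratio was 0.24. Fgf7 (26.5 and 21.5 CPM, log2 ratio 0.31) and Fgfr1 (110.2 and 91.3 CPM, 0.27) were also higher over all cells, and with an equal class mix their log2 ratios were 0.06 and 0.10. Mesenchymal classes held 20.2% of all LNR UMIs and 16.8% of all sham UMIs, and the part of this in the values was not tested.

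The other members of the LNR pair had log2 ratios of 0.19 for Fgf1, 0.23 for Fgf2, 0.46 for Fgfr4 (−0.02 to 0.94, from 86 and 66 UMIs), −0.41 for Fgf22 (−0.72 to −0.11), −0.00 for Fgf18, 0.01 for Fgfr2 and −0.04 for Fgfr3. The median over all 10 members was 0.21, against 0.02 over all genes. Of 133 combinations of member and class, 14 were higher and 7 lower by 1.5-fold or more, which is 15.8%, against 12.4% of all gene and class combinations. Of the 21, 19 rested on under 100 UMIs. Synovial lining-like cells had more Fgf2 (10.3 and 4.48 CPM, log2 ratio 1.21, 0.55 to 1.89) and more Fgf7 (9.21 and 4.79 CPM, 0.94, 0.29 to 1.62). These levels are low. By the mean over the 4 libraries synovial lining-like cells were at 10.1% of the highest class for Fgf2 and 1.61% for Fgf7. T cell-like cells were at 10.8% and 4.48%. Neutrophil-like cells had more Fgfr1 (103 and 59.2 CPM, log2 ratio 0.79, from 160 and 58 UMIs), in a class where 1184 of 8848 genes were higher and 707 lower. LECs had less Fgfr2 (18.8 and 31.6 CPM, from 27 and 42 UMIs) and less Fgfr3 (15.3 and 27.8 CPM, from 22 and 37 UMIs) after removal, levels below those of T cell-like cells in the same libraries. In the diet pair LECs held 93.8 and 106 CPM of Fgfr2 and 20.7 and 29.1 CPM of Fgfr3.

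**Figure D5:**
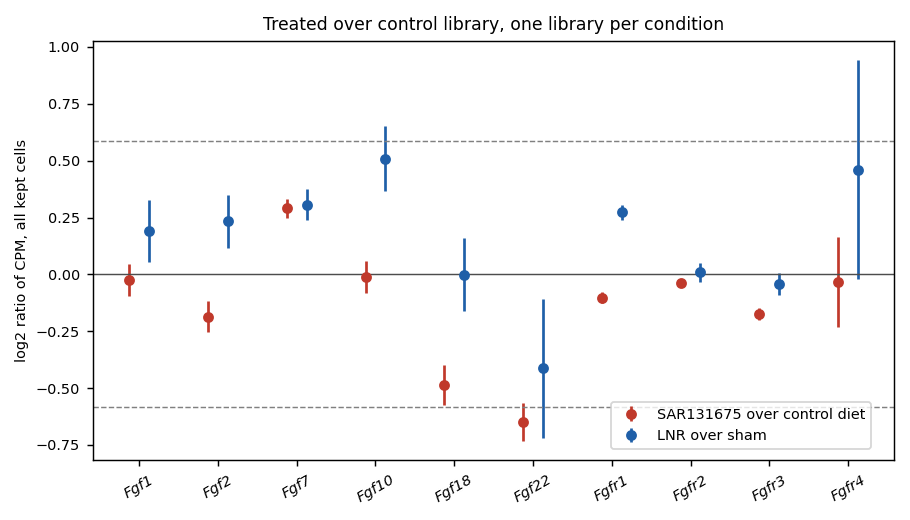
Log2 ratio of CPM over all kept cells for the 10 members, SAR131675 over control diet and LNR over sham. Points rest on 1 library per condition, bars are exact 95% intervals for counting error, and dashed lines mark a fold of 1.5 either way. Fgf22 in the diet pair, at −0.65, is the point past a line.

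Between the pairs, the control diet library had 4.60-fold more Fgfr2 than sham (287 and 62.5 CPM), 6.55-fold more Fgf22 (9.53 and 1.45 CPM) and 3.30-fold more Fgfr4 (1.44 and 0.438 CPM), while Fgfr1 differed 1.16-fold. The median gene had a log2 ratio of 0.54. The pairs were counted with different Cell Ranger versions by the file headers, had different numbers of UMIs per cell and held different shares of each class, and these cannot be told apart from the diet or operation. Differences between the pairs are for this reason given as values only, and treatments are compared within a pair.

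Other genes of the FGF pathway were listed in 5 groups, of which 51 of 52 genes were in the matrices. In the diet pair 48 had at least 20 UMIs, and 3 were higher (Fgf5, Fgf15 and Fgf21) and 3 lower (Fgf17, Fgf20 and Klb) by 1.5-fold or more, with a median log2 ratio of −0.02, where 9.69% of all genes were past that fold. Fgf5, which ends hair growth, was at 1.44 and 0.531 CPM (log2 ratio 1.44, 1.16 to 1.72). In the LNR pair 42 were measured, 0 were higher and 2 lower (Fgf15 and Kl), beside 6.59% of all genes. Over the whole list, shares of this size are near those of all genes and are no result about the pathway. By group, the ligands had 3 higher and 2 lower of 9 measured in the diet pair. In the LNR pair they had 0 higher and 1 lower of 5. Some rest on few counts, such as Fgf17 with 25 UMIs over the 4 libraries. Fgf15 was past the fold in both pairs in opposite directions, at 0.633 and 0.331 CPM in the diet pair and 0.0420 and 0.173 CPM in the LNR pair, the last from 6 and 26 UMIs. The 15 measured feedback and target genes, such as Spry1, Dusp6 and Etv5, held 0 past the fold in either pair, which with so few genes is also near the 9.69% and 6.59% of all genes. The members of the list with the most UMIs were the heparan sulfate proteoglycan genes Sdc4 and Sdc1 and the FGF-binding protein gene Fgfbp1. Sdc4 was at 575 and 662 CPM in the diet pair and 469 and 480.3 CPM in the LNR pair. Fgfbp1 was highest in sebaceous cells and Sdc1 in infundibulum- and nail-type keratinocyte-like cells. Spry1, an inhibitor induced by FGF signaling, was highest in the dermal papilla- and nail mesenchyme-like class in all 4 libraries, with a mean of 219 CPM. By the same mean Spred1, Spred3 and Sulf1 were highest there as well, but this class was the highest in only 2, 0 and 1 of the libraries. For Spred1 the mean was 223 CPM, beside 216 CPM in macrophage-like cells. For Spred3 it was 6.49 CPM, beside 6.18 CPM in blood endothelial-like cells, and for Sulf1 186 CPM, beside 179 CPM in tenocyte-like cells. Most other feedback and target genes were highest elsewhere. Spry2 and Spry4 led in pericyte- and smooth muscle-like, Dusp6, Etv1 and Sulf2 in macrophage-like, and Etv5 in chondrocyte-like cells. Fgf9, a further ligand named after its values were seen, averaged 132 CPM in tenocyte-like cells, the class of highest Fgf18, and 6.94 CPM in the next class.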

How the data were processed

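The authors deposited 10x Genomics matrices of UMI counts per gene and cell barcode, 1 per library, made from reads by Cell Ranger. By the file headers this was version 8.0.1 for the diet pair and 6.1.2 for the LNR pair, and the submitters' processing notes name version 6.1.2 and build GRCm39 for all. The deposited counts are not normalized, and the lowest total of a barcode was 500 UMIs. Barcodes with 200 to 5500 genes, at most 30000 UMIs and at most 10% mitochondrial UMIs were kept.

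Each pair was clustered with scanpy 1.11.5 (2000 variable genes without the FGF genes, 30 principal components, 20 neighbors, Leiden resolution 1.5, with mesenchymal cells clustered again at resolution 1). Clusters were named from 38 marker lists when the marker score was at least 0.25 and at least 3 own markers were detected. No unrelated list could reach 0.75 of the top score. Some related lists could share a name. A narrower list that reached 0.75 of a broader one took the name if any of its markers was among the 10 leading genes. The fibroblast list could thus score higher in a cluster given a narrower mesenchymal name. This naming rule, the merged names and the repeat clustering were set after looking at clusters and marker scores, before the levels of the members were computed. The members and lists were chosen with earlier results of these data known. Doublets were left in, and expected rates were 15.9% to 23.3% of cells, while Scrublet marked 0.903% to 7.41%. Markers of more than 1 lineage were found in 43.6% to 58.6% of cells.

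UMIs were summed per library and class and given as CPM. A ratio is called past the fold at 1.5 or more either way with at least 20 UMIs over both libraries. With 1 library per condition there was no test and no p-value. The 95% intervals (Poisson for CPM, conditional binomial for ratios) cover counting error only. Genes named beside the members are the 3 most correlated with each over classes (Pearson, log2(CPM + 10), at least 500 UMIs), and pathway genes past the fold in both pairs or with the most UMIs. Others were named after their values were seen. Shares of cells with a UMI are given at full depth and after thinning to 2000 UMIs, leaving out shallower cells. Python 3.11.15, numpy 2.4.6 and scipy 1.17.1 were used. The intervals were tested on simulated Poisson counts, which the intervals assume. That check covers the code and leaves out the uneven spread of UMIs over cells. Promoters are from RefSeq.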

Additional observations from a re-analysis of the deposited data

How the results depend on the processing

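Of the 10 members, 8 had the same highest class in all 4 libraries. By the share of cells with a UMI this was 5 after thinning to 2000 UMIs and 4 at full depth (where Fgf7, Fgfr1 and Fgfr3 were highest in adventitial fibroblasts, the osteoblast lineage and spinous keratinocytes), and without the repeat clustering it was 2, with Fgf18 then highest in adventitial and Fgfr4 in other fibroblasts. The full-depth shares, the clustering without repeat, and leaving out the nearly all-sham keratinocyte cluster or the shared barcodes were chosen after seeing the data. The count was 8 at resolution 0.7 and without Scrublet calls, 7 without upper limits on genes and UMIs, and 6 by the mean per cell. It was also 6 without mixed-lineage cells, where 16 classes remained and Fgf18 was highest in infundibulum- and nail-type keratinocytes. For the diet, 1 member was past 1.5-fold, against 0 without upper limits, 0 with an equal class mix, 2 at a lower limit on the fold (Fgf18 and Fgf22) and 0 at 2-fold. For LNR it was 0, and 3 at the lower limit (Fgf10, Fgf22 and Fgfr4). Over all genes, 2193 of 22625 (9.69%, diet) and 1265 of 19200 (6.59%, LNR) were past 1.5-fold. At the lower limit these were 5628 (24.9%) and 3215 (16.7%). Beside these shares, 2 and 3 of 10 members at the lower limit are no result about the members. At 2-fold 679 (3.00%) and 371 (1.93%) of all genes were past it. At 1.5-fold with at least 100 UMIs it was 939 of 18944 (4.96%) and 371 of 16085 (2.31%). With at least 1 UMI it was 6365 of 28391 (22.4%) and 5937 of 25631 (23.2%). The causes of these shifts were not tested. Fgf22 in the diet pair, the 1 member past 1.5-fold over all cells, kept its direction in each setting. The combinations of member and class past the fold were not recomputed under these settings. No paired analysis was possible because each condition is 1 library. Precision was lowest for Fgf22 and Fgfr4 in the LNR pair, which rest on 156 and 219 and on 86 and 66 UMIs.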
